A study of Mus musculus with 12 samples.

Results

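The genes described here are 9 markers of mast cells, basophils and eosinophils, namely Hdc, Cpa3, Mcpt8, Fcer1a, Ms4a2, Gata2, Kit, Prg2 and Epx. They were taken by name from a list that was fixed with earlier results of these data known, and they are 9 of 22180 genes measured. Each had exactly 1 probe set with 1 gene symbol in the platform annotation. They were measured in cultures of dendritic cells, which present antigen to T cells and were grown from mouse bone marrow with the growth factor GM-CSF. There were 4 groups of 3 arrays. Knockout (KO) cells came from Arc/Arg3.1 -/- mice, which lack the immediate early gene Arc, and were either treated with LPS or left untreated. Wildtype (WT) cells came from Arc/Arg3.1 +/+ mice and had the same 2 treatments. All mice were 8 weeks old, on the C57BL/6 background and labelled male, and all cultures had GM-CSF at 20 ng/ml until the semi-adherent cells were taken on day 7. LPS, a glycolipid of the outer membrane of Gram-negative bacteria, was given at 100 ng/ml for 30 min. Cells were then washed and kept for 1 h without it, and untreated cells had plain medium. The knockout is not described as specific to a cell type in the labels, and these do not say whether the cultures of a group came from separate mice. The p-values therefore measure the spread between these cultures, which may be technical.

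Mast cells, basophils and eosinophils are the granulocytes of allergy and of defence against parasites. Mast cells and basophils carry the high-affinity IgE receptor and release stored histamine and proteases when antigen cross-links it, while eosinophils release toxic cationic proteins. All of them arise from marrow progenitors, some of which carry the receptor KIT and the transcription factor GATA2, so that marrow cultures can contain such cells or their precursors beside dendritic cells. In bulk RNA, fewer cells of a type and less RNA per cell cannot be told apart.

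Values are log2 signals, on which a difference of 1 is a doubling, and folds are ratios of signals. Because probe sets differ in brightness, no level of a gene is read against that of another, and summed signals are weighted to the brighter probe sets. As a guide to dim signals, the 9055 probe sets annotated to no gene had a median between 5.89 and 6.10 on the 12 arrays, called the no-gene median here. The array medians over all probe sets were 6.50 to 6.67. Arc itself was at 7.68 to 8.05 on the 6 KO arrays and 9.21 to 9.62 on the 6 WT arrays. All 13 measured conventional dendritic cell markers, such as Itgax (10.25 to 11.49), were above the no-gene median on every array.

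Some arrays stand apart. The 3 untreated WT arrays were closer to one another than other replicates were (SD of the differences 0.105 to 0.108 over genes with a mean signal above 8, against 0.193 to 0.438 in the other 9 pairs). Their mean was therefore counted as 1 sample. For the 9 genes, the values with 12 separate samples are given where they change a call. Y-linked genes averaged 8.83 to 9.24 on KO LPS replicate 2, KO untreated replicate 2 and WT LPS replicate 1. On the other 9 arrays they averaged 3.99 to 4.58, against the label of all mice as male. Xist, an RNA of female cells, was at 5.63 to 5.76 on the 3 arrays with Y-linked signal and 11.22 to 11.92 on the other 9. No untreated WT array had Y-linked signal, so these signals are not balanced between the groups. In each LPS group, replicates 2 and 3 had a low median signal over 78 small nucleolar and Cajal body RNA genes, 9.73 to 9.87, where the remaining 8 arrays had 10.44 to 11.04. For the 9 genes, a call after LPS that changed without the arrays of Y-linked or low small RNA signal is given. Calls of the other list genes and summed signals are given with all arrays only.

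Because Gata2 is itself one of the 9 genes and its protein is known to act at mast cell genes, the bases before each gene's start were searched for GATA motifs. The letters searched, on both strands, were AGATAA and, as further forms of the motif, AGATAG as well as TGATAA and also TGATAG, and no other motif was searched. RefSeq promoter entries of build GRCm38.p6 were found for 8 of the 9 genes, as 10 entries, since Gata2 and Kit have several starts. Prg2 had no entry and was not searched. Within 250 bases before the start, 4 of the 10 entries held a match, those of Hdc, Cpa3, Fcer1a and Ms4a2. Among 32851 promoter entries of this length, 26.5% held one. The 4 are shown 5′ to 3′ with the matched letters in capitals, since they separate the genes with GATA letters near the start from the other genes searched. They are chr2:126618679-126618928, minus strand, chr3:20242182-20242431, minus strand, chr1:173227230-173227479, minus strand and chr19:11623720-11623969, minus strand. A match is a run of letters and not a shown binding site.
Hdc: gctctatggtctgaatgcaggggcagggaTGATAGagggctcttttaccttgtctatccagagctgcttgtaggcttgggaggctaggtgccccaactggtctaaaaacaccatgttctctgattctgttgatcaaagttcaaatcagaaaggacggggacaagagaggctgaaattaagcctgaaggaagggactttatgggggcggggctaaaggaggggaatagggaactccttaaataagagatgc
Cpa3: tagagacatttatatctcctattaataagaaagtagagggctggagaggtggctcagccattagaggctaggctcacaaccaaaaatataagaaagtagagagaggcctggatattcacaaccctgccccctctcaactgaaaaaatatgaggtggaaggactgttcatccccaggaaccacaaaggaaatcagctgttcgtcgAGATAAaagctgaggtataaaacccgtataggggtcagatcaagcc
Fcer1a: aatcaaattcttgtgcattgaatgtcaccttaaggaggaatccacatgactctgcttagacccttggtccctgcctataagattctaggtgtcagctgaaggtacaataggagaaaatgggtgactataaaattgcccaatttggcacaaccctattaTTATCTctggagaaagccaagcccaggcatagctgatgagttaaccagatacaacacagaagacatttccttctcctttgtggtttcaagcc
Ms4a2: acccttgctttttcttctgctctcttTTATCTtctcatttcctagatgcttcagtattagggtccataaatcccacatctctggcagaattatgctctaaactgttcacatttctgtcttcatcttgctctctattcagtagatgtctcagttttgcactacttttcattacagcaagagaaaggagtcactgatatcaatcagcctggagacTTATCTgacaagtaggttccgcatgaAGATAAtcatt
Ms4a2 held 3 matches, which began 224, 37 and 11 bases before the start. The other genes shown held 1 each, at 221 bases in Hdc, 46 in Cpa3 and 92 in Fcer1a.

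Hdc encodes histidine decarboxylase, the enzyme that makes histamine. After LPS its log2 signal was 6.94, 8.26 and 7.90 on the KO arrays, against 6.56, 6.54 and 6.37 on the untreated KO arrays. In WT cells it was 7.13, 7.44 and 7.97 after LPS, against 6.61, 7.05 and 6.54 without. All LPS arrays of either genotype lay above all untreated arrays of the same genotype, and replicate 1 was the lowest of each LPS group.

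Prg2 encodes major basic protein, the main cationic protein of the eosinophil granule. It was at 6.84, 6.54 and 6.70 on the KO LPS arrays, against 7.96, 7.88 and 7.38 on the untreated KO arrays. In WT cells it was at 6.21, 6.23 and 6.75 after LPS, against 8.01, 7.93 and 7.80 without. The LPS and untreated arrays did not overlap in either genotype, and the LPS values came within 0.25 to 0.75 of the no-gene median on their own array.

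Kit encodes the receptor for stem cell factor, the main growth and survival signal of mast cells, and also marks early marrow progenitors. It was at 10.17, 9.77 and 10.43 after LPS in KO cells, against 9.62, 9.11 and 9.72 without LPS. In WT cells it was at 9.79, 9.90 and 10.43 after LPS, against 9.42, 9.43 and 9.34 without. It was at least 3.18 above the no-gene median on all 12 arrays. The LPS arrays were higher than the untreated arrays in both genotypes, although in KO cells the lowest LPS array lay close to the highest untreated one.

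**Figure D1:**
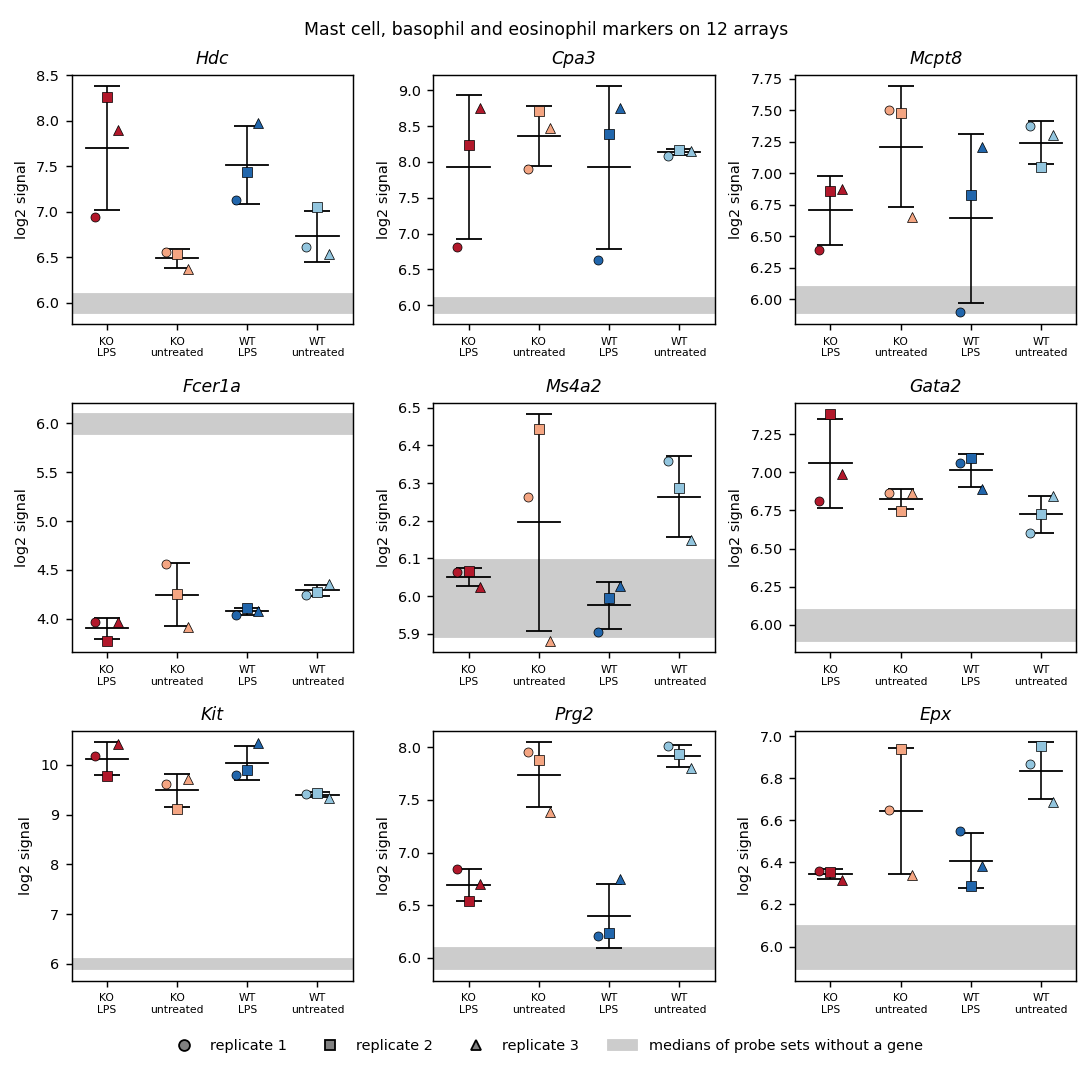
Log2 signal of each of the 9 genes (y axis, with its own range in each panel) on every array of the 4 groups (x axis); points are arrays, shaped by replicate number, and bars are the mean and SD of 3 arrays, the untreated WT arrays being counted as 1 sample in the tests. Prg2 fell to 6.21 to 6.84 on the LPS arrays against 7.38 to 8.01 on the untreated arrays, and Fcer1a lay below the grey band, the range of the no-gene median, on all 12 arrays.

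Cpa3 encodes carboxypeptidase A3, a protease stored in mast cell and basophil granules. Its KO values were 6.81, 8.24 and 8.75 after LPS, against 7.90, 8.71 and 8.48 without. Its WT values were 6.63, 8.39 and 8.76 after LPS, against 8.09, 8.17 and 8.15 without. Replicate 1 of each LPS group was lower than every untreated array, whereas replicates 2 and 3 of both were above the untreated WT arrays.

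Mcpt8 encodes a serine protease that marks mouse basophils. It was at 6.39, 6.86 and 6.87 on the KO LPS arrays, against 7.50, 7.48 and 6.65 on the untreated KO arrays. The WT LPS arrays had 5.90, 6.82 and 7.20, against 7.38, 7.05 and 7.30 on the untreated WT arrays. The groups overlapped in both genotypes, and WT LPS replicate 1 was below the no-gene median on that array.

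Gata2 encodes a transcription factor of progenitors, mast cells and basophils. It had 6.81, 7.38 and 6.99 after LPS in KO cells, against 6.87, 6.75 and 6.86 without. In WT cells it had 7.06, 7.09 and 6.89 after LPS, against 6.60, 6.73 and 6.84 without. The WT groups were apart and the KO groups overlapped, with all 12 values 0.50 to 1.49 above the no-gene median.

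The alpha and beta chains of the high-affinity IgE receptor were dim against the no-gene median. Fcer1a encodes the alpha chain, which binds IgE, and was at 3.77 to 4.56 over all arrays, which is -2.12 to -1.40 relative to the no-gene median. Ms4a2 encodes the beta chain, which amplifies the signal, and its signal ran between 5.88 and 6.44, above that median on 8 of 12 arrays and by no more than 0.51. Fcer1g, the gamma chain that other Fc receptors of myeloid cells also use, was at 11.56 to 12.56.

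Epx encodes eosinophil peroxidase, which makes oxidants from halides. It was at 6.36, 6.36 and 6.32 in KO cells after LPS, against 6.65, 6.94 and 6.34 without. In WT cells it was at 6.55, 6.29 and 6.38 after LPS, against 6.87, 6.95 and 6.69 without. The highest value was 1.01 above the no-gene median, and KO untreated replicate 3 lay with the LPS arrays.

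In the LPS groups, the spread between arrays was wider for Cpa3 than for the other 8 genes. Its SD was 1.01 in KO cells after LPS, against 0.416 without, and 1.14 in WT cells after LPS, against 0.044 without (n = 3 arrays each). The median SD over all 22180 genes was 0.170 and 0.129 in KO cells after LPS and without, and 0.139 and 0.101 in WT cells after LPS and without. The SD of Hdc was 0.682 and 0.427 in the KO and WT LPS groups, that of Mcpt8 0.275 and 0.674, and that of Kit 0.332 and 0.343. The SD of Hdc in KO LPS cells exceeded that of 98.6% of all genes in the same group, and the SD of Mcpt8 in WT LPS cells exceeded that of 99.4%. Without LPS the widest of the 9 were Mcpt8 in KO cells, with an SD of 0.483, and Hdc in WT cells, with an SD of 0.279. Prg2 had SDs of 0.107 to 0.309 over the 4 groups. The SD of Ms4a2 was 0.0241 in KO LPS cells and 0.287 in untreated KO cells, and that of Epx 0.0248 and 0.300.

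The response to LPS was tested in each genotype and over both. In KO cells Hdc rose and Prg2 fell, so 2 of the 9 genes passed an adjusted p of 0.05 by limma, where 5.91% of all genes did (2.98% higher and 2.93% lower). Hdc was 2.31-fold higher (log2 difference 1.21, SE 0.30, adjusted p = 0.0409), at 7.70 ± 0.68 after LPS and 6.49 ± 0.11 without. Prg2 was 2.07-fold lower (log2 difference -1.05, SE 0.18, adjusted p = 0.0078), at 6.69 ± 0.15 after LPS and 7.74 ± 0.31 without (SD, n = 3 each). The other 7 genes did not pass. The difference of Kit was 0.64 (SE 0.22, adjusted p = 0.132), and with the replicate number as a block over the 9 arrays other than untreated WT it passed (SE 0.13, adjusted p = 0.0162). The median difference of the 9 genes was -0.30, and that of all genes 0.00. On the arrays, 3 of the 9 genes had LPS and untreated KO groups that did not overlap (Hdc, Kit and Prg2), as did 25.1% of all genes.

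The call of Hdc in KO cells was lost without any one of 6 arrays. The adjusted p was 0.0964, 0.101 and 0.129 without KO untreated replicates 1, 2 and 3, 0.0807 and 0.148 without KO LPS replicates 2 and 3, and 0.0602 without WT LPS replicate 2. Without the 4 arrays of low small RNA signal, only replicate 1 of each LPS group remained, and the difference of Hdc was 0.45 (SE 0.15, adjusted p = 0.154) and that of Prg2 -0.90 (SE 0.24, adjusted p = 0.100). Without the 3 arrays with Y-linked signal, Hdc had a difference of 0.96 (adjusted p = 0.120) and Prg2 one of -0.90 (adjusted p = 0.0685).

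In WT cells Prg2 fell, and it alone of the 9 genes passed, against 1.57% of all genes (1.34% higher and 0.234% lower). It was 2.87-fold lower (log2 difference -1.52, SE 0.26, adjusted p = 0.0169), at 6.40 ± 0.30 after LPS (SD, n = 3) and 7.92 in the counted untreated sample. Hdc had a difference of 0.78 (SE 0.42, 95% interval -0.16 to 1.72, adjusted p = 0.647) and Kit one of 0.64 (SE 0.31, 95% interval -0.05 to 1.34, adjusted p = 0.564). With 12 separate samples the adjusted p of Prg2 was 1.16e-04, that of Hdc 0.126 and that of Kit 0.0731. On the arrays, 7 of the 9 genes had LPS and untreated WT groups that did not overlap, as did 30.2% of all genes. Hdc, Gata2 and Kit were higher, and Prg2, Epx and the dim genes Fcer1a and Ms4a2 lower. Both counts take singly the untreated WT arrays, which lay close together and were counted as 1 sample in the tests. The call of Prg2 was lost without the 4 arrays of low small RNA signal (log2 difference -1.71, SE 0.30, adjusted p = 0.0969) and when the fit held only the WT groups (adjusted p = 0.0578).

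Over both genotypes, Hdc rose and Prg2 fell again, 2 of 9 genes against 6.22% of all genes (3.94% higher and 2.28% lower). Prg2 was lower by a log2 difference of -1.28 (SE 0.16, 95% interval -1.64 to -0.93, adjusted p = 7.03e-04), and kept its call without the low small RNA arrays (-1.30, adjusted p = 0.0232) and without the arrays with Y-linked signal (-1.16, adjusted p = 0.0094). Hdc was higher by 1.00 (SE 0.26, 95% interval 0.42 to 1.57, adjusted p = 0.0480). Without the low small RNA arrays the difference of Hdc was 0.42 (SE 0.12, adjusted p = 0.148). The difference of Kit was 0.64 (SE 0.19, adjusted p = 0.0865) and that of Epx -0.36 (SE 0.13, adjusted p = 0.142), and both passed with 12 separate samples (adjusted p = 0.00897 for Kit and 0.0246 for Epx). Gata2 had a difference of 0.26, Mcpt8 of -0.55, Cpa3 of -0.32, Fcer1a of -0.28 and Ms4a2 of -0.22, none of which passed in this fit. Cpa3 passed in 2 of 25 other settings. Without the low small RNA arrays its difference was -1.53. Without the 3 arrays with Y-linked signal the difference of Hdc was 0.96 (adjusted p = 0.0573) and that of Kit 0.70 (adjusted p = 0.0344).

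**Figure D2:**
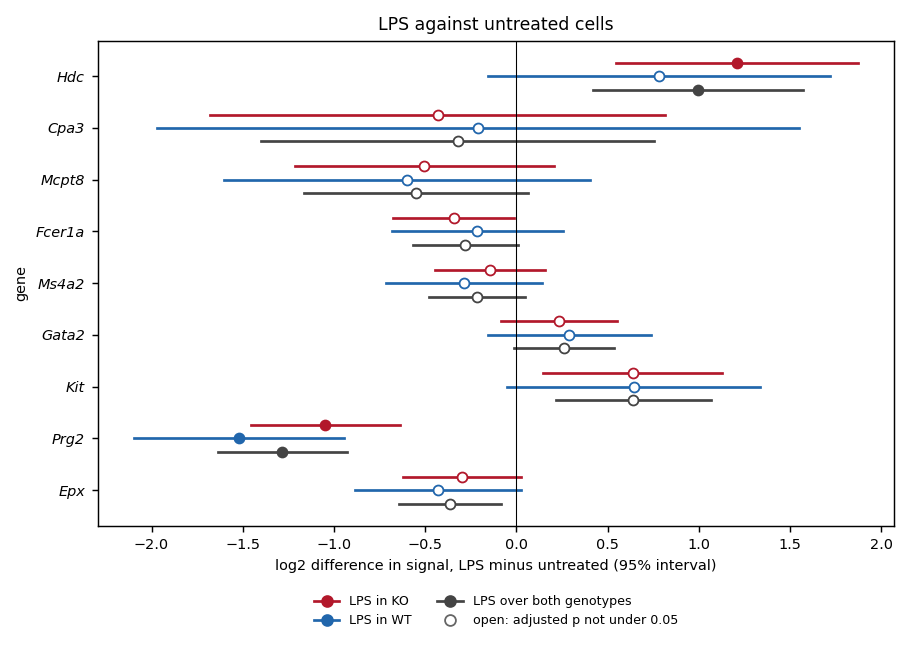
Log2 difference in signal, LPS minus untreated (x axis), for each of the 9 genes (y axis) in KO cells, in WT cells and over both genotypes; points are limma estimates, filled where the adjusted p is under 0.05, and lines are 95% intervals. Prg2 was filled in all 3 comparisons, Hdc in KO cells and over both, and the interval of Cpa3 was the widest, from -1.97 to 1.55 in WT cells.

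Signals of Hdc, Cpa3 and Mcpt8 differed within the LPS groups along with the small RNA signal of the array. Replicates 2 and 3, with low small RNA signal, averaged 8.49 for Cpa3 in KO LPS cells and 8.57 in WT LPS cells, against 6.81 and 6.63 on replicate 1. Compared with the mean of the untreated arrays, Cpa3 on replicate 1 was at -1.56 in KO and -1.51 in WT cells, while the mean of replicates 2 and 3 was at 0.13 and 0.44. For Hdc, replicate 1 was 0.45 and 0.40 above the untreated mean in KO and WT cells, and the other replicates 1.59 and 0.97 above it.

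With a term for the low small RNA arrays in the model, the difference of Hdc over both genotypes was 0.42 (SE 0.19, adjusted p = 0.313). That of Cpa3 was -1.53 (SE 0.24, adjusted p = 0.00596), that of Mcpt8 -1.08 (SE 0.26, adjusted p = 0.0446) and that of Prg2 -1.30 (SE 0.21, adjusted p = 0.00739). In such a fit the difference over both genotypes equals that of replicate 1 of the LPS groups alone. On the same arrays Itgax, an integrin chain of dendritic cells, was at 10.25 on KO LPS replicate 1 and 10.69 on WT LPS replicate 1. The other LPS arrays had it at 10.96 to 11.49. Itgax is 1 of 13 measured dendritic cell markers and was chosen after its values were seen. The rest of that list was not compared by replicate. The part of the small RNA signal in these results was not tested.

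**Figure D3:**
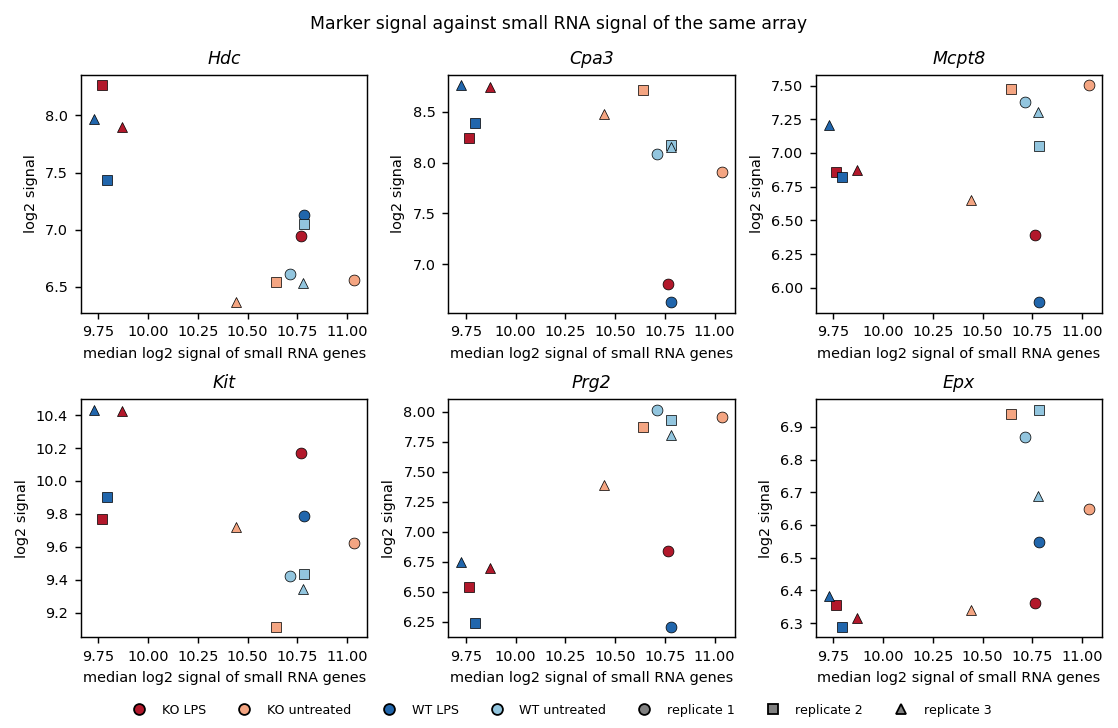
Log2 signal of 6 of the genes (y axes) against the median log2 signal of 78 small RNA genes on the same array (x axes), with points for the 12 arrays coloured by group and shaped by replicate number. Replicate 1 of both LPS groups sits apart from the other LPS arrays on the x axis and is lowest for Cpa3, at 6.81 and 6.63, whereas Prg2 was at 6.21 to 6.84 on all 6 LPS arrays.

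No gene of the 9 passed between the genotypes. Of the 9 genes, 0 had an adjusted p under 0.05 by limma in untreated cells, after LPS or over both treatments, and 0 had an unadjusted p under 0.05. Of all genes, 0.00451%, 0.00902% and 0.0135% passed in these comparisons, and 4.04%, 3.95% and 3.3% had an unadjusted p under 0.05. The difference of Prg2, KO minus WT, was -0.18 (95% interval -0.75 to 0.40) in untreated cells and 0.30 (95% interval -0.11 to 0.70) after LPS. That of Hdc was -0.24 (95% interval -1.18 to 0.70) in untreated cells and 0.19 (95% interval -0.47 to 0.85) after LPS. Kit differed by 0.09 (95% interval -0.61 to 0.78) in untreated cells and by 0.08 (95% interval -0.41 to 0.57) after LPS. The intervals of Cpa3 were the widest, -1.53 to 1.99 in untreated cells and -1.24 to 1.25 after LPS, so a log2 difference of 1 in either direction lies within them. After LPS, all KO arrays of Fcer1a were lower than all WT arrays, 1 of the 9 genes against 4.96% of all genes, at a signal below the no-gene median.

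The LPS responses of the genotypes were compared through the interaction of genotype and LPS, the KO response minus the WT response. Of the 9 genes 0 passed by limma, 0 had an unadjusted p under 0.05 and 0% of all genes passed (4.43% had an unadjusted p under 0.05). The interaction was 0.47 for Prg2 (SE 0.32, 95% interval -0.23 to 1.18) and 0.43 for Hdc (SE 0.52, 95% interval -0.72 to 1.58), with an adjusted p of 0.948 for each. The call of Hdc in KO and not in WT cells is therefore no shown difference between the genotypes.

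**Figure D4:**
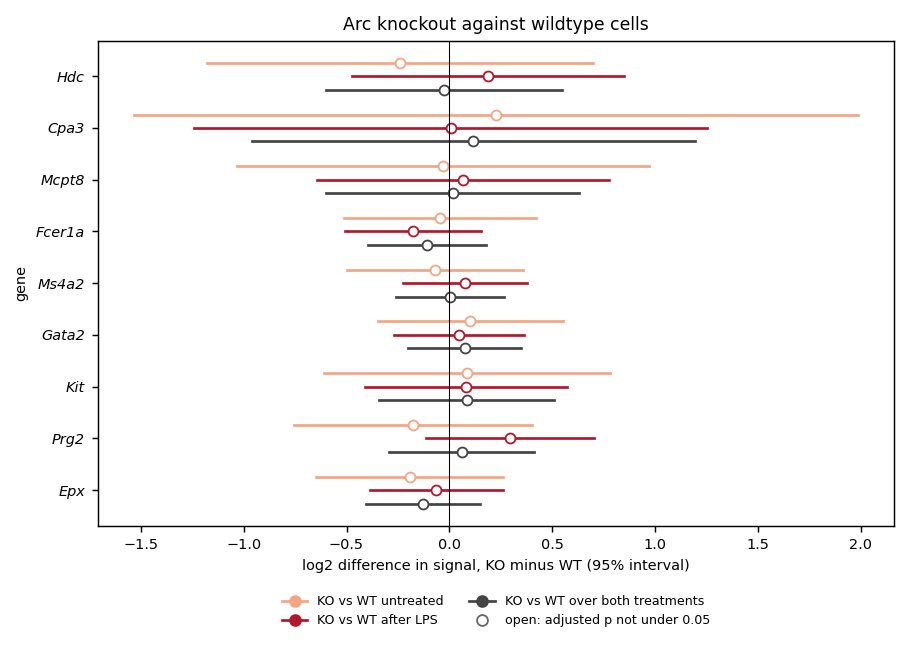
Log2 difference in signal, KO minus WT (x axis), for each of the 9 genes (y axis) in untreated cells, after LPS and over both treatments; points are limma estimates, all open because no adjusted p is under 0.05, and lines are 95% intervals. Every interval spans 0, and the intervals of Cpa3 reach from -1.53 to 1.99 in untreated cells.

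Among the other genes of the mast cell, basophil and eosinophil lists, 30 were measured, and over both genotypes 0 passed by limma and 1 had an unadjusted p under 0.05 (17.6% of all genes did). Of these, 11 were above the no-gene median on all 12 arrays, 11 on none and 8 on some. Those above on all arrays included Hpgds, a prostaglandin D synthase, at 7.07 to 8.27, the transcription factor gene Mitf at 8.14 to 8.96, the interleukin-18 receptor gene Il18r1 at 8.85 to 9.76 and the lipoxygenase gene Alox15 at 7.01 to 8.42. Of 19 measured mast cell genes, 7 lay below the no-gene median on all 12 arrays. These were Fcer1a, the chymase-type proteases Cma1, Mcpt1, Mcpt2 and Mcpt4, and the receptor genes Mrgprb1 and Mrgprb2. Cma1 was at 4.29 to 4.98 and Mcpt4 at 3.16 to 4.38 over the arrays. Tryptase Tpsb2 was above that median on 1 array. Of 18 mast cell genes other than Hdc, 0 passed over both genotypes, and the list median was 0.03, against -0.01 over all genes. Of 15 basophil genes, Hdc alone passed, with a list median of -0.11. Prss34, a basophil protease, was at 6.70 to 7.31 on the arrays, while Il4 and Ccr3 were below the no-gene median throughout.

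Of 11 measured eosinophil genes, Prg2 alone passed over both genotypes, and the list median was -0.09, with 8 negative and 3 positive differences. Prg3, the homologue of Prg2, the eosinophil-associated ribonucleases Ear6 and Ear10, and the eotaxin receptor gene Ccr3 lay below the no-gene median on all arrays. Il5ra, the receptor chain for the eosinophil growth factor IL-5, was above it on 1 array. Siglecf, a lectin of mouse eosinophils and alveolar macrophages, was at 6.91 to 8.23 and had a difference of -0.05 (adjusted p = 0.956). The summed signal of the eosinophil list, on the linear scale, was 797 to 1114 on KO LPS arrays, against 1002 to 1211 on untreated KO arrays. It was 873 to 1014 on WT LPS arrays, against 1111 to 1153 on untreated WT arrays. These sums hold Prg2 itself. Without it they were 683 to 1022 on KO LPS arrays, against 798 to 976 on untreated KO arrays, and 799 to 939 on WT LPS arrays, against 877 to 908 on untreated WT arrays. With Prg2 the ranges overlapped in KO cells and not in WT cells, and without it they overlapped in both.

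Markers of neutrophils and of inflammatory monocytes were lower after LPS, as Prg2 was. Of all genes, 2.93% passed as lower in KO cells, 0.234% in WT cells and 2.28% over both genotypes. Of 12 neutrophil markers, 6 fell in KO cells, 1 in WT cells and 7 over both genotypes, with a median difference of -0.96 over both, and S100a8 at -1.69 (SE 0.28, adjusted p = 0.00382) and Camp at -1.40 (SE 0.18, adjusted p = 8.18e-04). Their summed linear signal was 4649 to 5561 on KO LPS arrays, against 9088 to 11329 on untreated KO arrays. In WT cells it was 3642 to 6807 after LPS, against 11120 to 11314 without. The neutrophil list was thus lower on all LPS arrays, 10 of its 12 genes were above the no-gene median on every array, and none was below it on all arrays. Of 6 markers of early granulocyte progenitors, among them the primary granule proteases Elane, Prtn3 and Ctsg, 0 passed in any LPS comparison by limma, and their median difference was -0.18. Their summed signal was 584 to 695 on KO LPS arrays, against 646 to 754 on untreated KO arrays, and 531 to 839 on WT LPS arrays, against 756 to 811 on untreated WT arrays. Of 6 inflammatory monocyte markers, 3 fell over both genotypes, with a median difference of -0.95. Ccr2, a chemokine receptor, was at -1.66 (SE 0.16, adjusted p = 1.38e-04) and Chil3, a chitinase-like protein, at -1.42 (SE 0.18, adjusted p = 8.72e-04). Their summed signal was 2395 to 3915 on KO LPS arrays, against 7338 to 8664 on untreated KO arrays, and 2890 to 4640 on WT LPS arrays, against 7960 to 8451 on untreated WT arrays. Of 10 macrophage markers, 1 fell by the test over both genotypes (Lyz2), and all 10 differences were negative, with a median of -0.37. Their summed signal was 10894 to 18819 on KO LPS arrays, against 20531 to 23633 on untreated KO arrays. In WT cells it was 15027 to 17666 after LPS, against 21655 to 22909 without. The part of neutrophil, monocyte or macrophage RNA in the difference of Prg2 was not tested.

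Of 10 genes of histamine synthesis, storage, breakdown and receptors, Hdc rose and Hnmt fell over both genotypes. In that comparison 3.94% of all genes passed as higher and 2.28% as lower. Hnmt, which inactivates histamine by methylation, was lower by a log2 difference of -0.72 (SE 0.11, adjusted p = 0.00283). It averaged 6.83 after LPS and 7.55 without in KO cells, and 6.90 after LPS and 7.61 without in WT cells. The transporter Slc18a2, which loads histamine into granules, had a difference of -0.03 (adjusted p = 0.945), and the receptor genes Hrh1 to Hrh4 did not pass.

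Of 16 genes of the IgE receptor and its signalling, Fyn and Syk rose over both genotypes, where 3.94% of all genes did. Both are tyrosine kinases that act just below this receptor and below other immune receptors, and they were higher by 0.44 (SE 0.09, adjusted p = 0.0117) and 0.38 (SE 0.10, adjusted p = 0.0469). Of 12 genes of KIT ligand and signalling, 2 rose over both genotypes, against the same 3.94% of all genes. Pik3r1, the regulatory subunit of PI3 kinase, was higher by 0.87 (SE 0.09, adjusted p = 2.58e-04) and Stat5a, a transcription factor activated by many cytokine receptors, by 0.89 (SE 0.11, adjusted p = 9.01e-04). Kitl, which encodes stem cell factor, was below the no-gene median on all arrays.

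Of 16 partners of GATA2 and granulocyte lineage factors, Bhlhe40 rose by 0.38 (SE 0.08, adjusted p = 0.0238). Lyl1, a progenitor transcription factor, fell by 0.54 on the log2 scale (SE 0.13, adjusted p = 0.0268). Over both genotypes, 3.94% of all genes passed as higher and 2.28% as lower. Gata1, the factor of the eosinophil and mast cell lineages, ran between 5.64 and 6.29. Of 10 measured growth and survival receptors of type 2 immunity, such as Il3ra, Csf2rb and Il4ra, 0 passed in any of the LPS comparisons by limma. Between the genotypes and in the interaction, 0 genes of these lists passed.

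**Figure D5:**
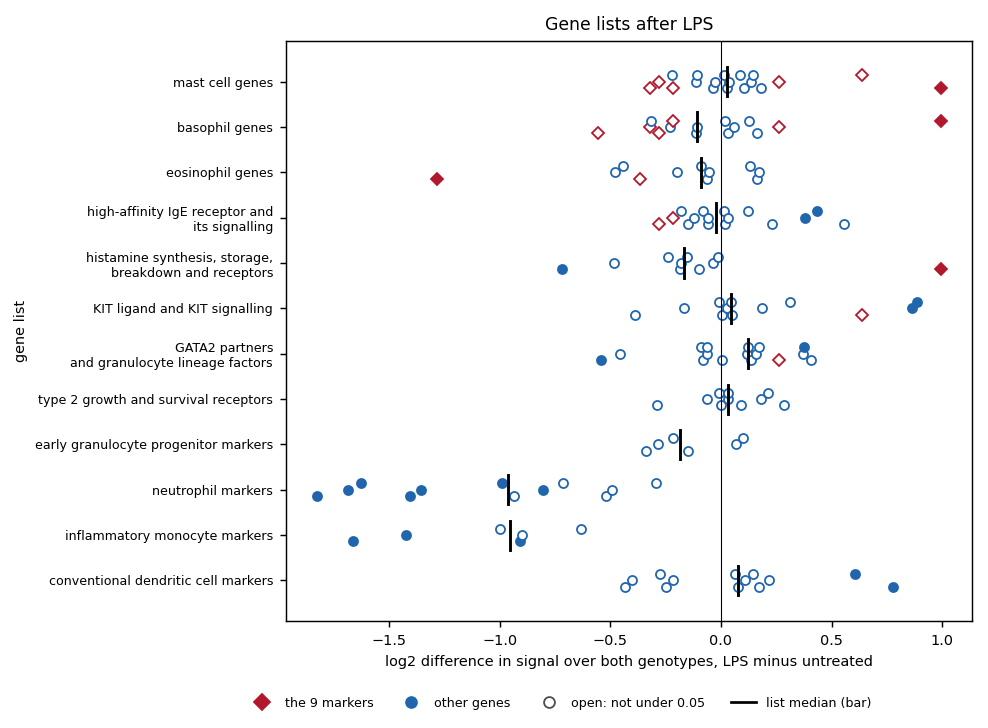
Log2 difference in signal over both genotypes, LPS minus untreated (x axis), for the measured genes of 12 lists (y axis); points are genes, red diamonds the 9 markers, filled where the adjusted p is under 0.05, and black bars list medians. Medians of the mast cell, basophil and eosinophil lists lay between -0.11 and 0.03, and that of the neutrophil list at -0.96.

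The genes whose signal ran most alike with each marker were taken over the 10 counted samples. They were sought among 14355 genes above the no-gene median. Predicted genes, genes with Rik symbols, small RNA genes and the other markers had been left out of these. For Prg2 these were S100a9 (Pearson r = 0.964), Zfp983 (0.944) and Cd177 (0.941), of which S100a9 and Cd177 are known from neutrophils. Hdc ran with the C-type lectin receptor gene Clec4d (r = 0.984), Lrp8 (0.964) and Ccnt1 (0.961). For Mcpt8 they were Stfa2l1 (0.943), Plac8 (0.932) and Abca13 (0.907), and for Kit they were Ccser2 (0.977), Rab8b (0.967) and Ppfibp1 (0.966). Cpa3 ran with Tango6 (0.906), Rbm5 (0.900) and Rnf213 (0.897), and Gata2 with Fam204a (0.950), Vmp1 (0.949) and Lmo4 (0.943). Epx ran with Rab37 (0.963), Vamp5 (0.928) and Zfp850 (0.906). The dim genes Fcer1a and Ms4a2 ran with Vmn2r54 (0.956), Zf12 (0.908) and Trip6 (0.882), and with H2al1m (0.879), Slc28a2 (0.879) and D11Wsu47e (0.869). These correlations are descriptions, since the samples share treatments and arrays and the highest values of many genes were picked.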

How the data were processed

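Total RNA was put on 12 Affymetrix arrays after whole-transcript labelling, per the labels' protocols. The deposited log2 signals, 1 per probe set and array, were taken as the authors normalized them. The method is not given in the sources used. The submitters' processing notes name limma and no other tool. Of 34390 probe sets, 23521 carried 1 gene symbol in the platform annotation, 1814 several and 9055 none. The brightest probe set by mean stood for a gene, which left 22180 genes. The arrays' number limits the precision.

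The test was limma 3.58.1 in R 4.3.3 with 1 mean per group, 7 contrasts, eBayes and Benjamini-Hochberg adjustment over all genes. The threshold on the adjusted p was 0.05. The untreated WT arrays were averaged, giving 10 samples and 6 residual degrees of freedom. That group's lone sample is assumed to vary like the others. The code was tested on simulated data.

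Members, lists and settings were chosen with earlier results of these data known. All 9 genes are named, with, per list, up to 2 others of smallest p among those that passed over both genotypes, and per gene the 3 most alike. Other list genes (among them Fcer1g, Itgax, Hpgds, Mitf, Il18r1, Alox15, Cma1, Mcpt4, Tpsb2, Prss34, Siglecf, Il5ra, Slc18a2, Kitl and Gata1) were chosen for their roles after their values were seen. Of the lists also fixed, those not described above came out as follows over both genotypes, where 6.22% of all genes passed. Of 13 conventional dendritic cell markers 2 rose, and of 7 stem and progenitor markers 1 fell. Of 6 megakaryocyte and erythroid markers 0 passed, and of 9 T, B and NK cell markers 0 passed. Residuals of arrays with the same replicate number correlated at 0.196 to 0.381 between the KO groups and 0.228 to 0.358 between the LPS groups, so numbers were taken to pair these from the data. The fit reported holds no term for this pairing, and results with the replicate number as a block are given beside it. Between the WT groups they were -0.0278 to 0.00873 and between the untreated groups -0.0531 to -0.00903. Coordinates and letters of promoters are those of RefSeq.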

Additional observations from a re-analysis of the deposited data

How the results depend on the processing

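Of 27 other settings, 27 could be run for the called differences of Hdc and Prg2 in KO cells. For Prg2 in WT cells 26 could be run, and for both genes over both genotypes 25. These 5 differences kept their direction in each, but not their calls. Hdc passed in 12 of 27 settings in KO cells and in 8 of 25 over both genotypes. Prg2 passed in 25 of 27 in KO cells, 24 of 26 in WT cells and 25 of 25 over both. In all, 27 of the 58 uncalled differences changed sign in at least 1 setting. In KO cells 2 markers passed after LPS. The count was 1 with quantile normalization, arrays shifted to one median, all probe sets, trend and robust estimation, or only the KO groups, and 0 without the arrays with Y-linked signal or without those of low small RNA signal. It was 1 to 2 when single arrays were left out. It was 3 with array weights (Hdc, Kit and Prg2). With the term for low small RNA signal the 2 genes were Cpa3 (-1.64, adjusted p = 0.00734) and Prg2, and with the term for Y-linked signal they were Kit (adjusted p = 0.0338) and Prg2, with Hdc at 1.21 (adjusted p = 0.0535). In WT cells 1 marker passed, where 1.57% of all genes did (11% with the replicate block and 12 separate samples, 10.4% with array weights). The count was 2 with the replicate block and 12 separate samples or with array weights, 0 with only the WT groups or without the low small RNA arrays, and 1 whichever array was left out. Over both genotypes 2 markers passed, where 6.22% of all genes did, a share that also shifts with the setting. The count was 4 with 12 separate samples, with the replicate block and 12 separate samples, or with array weights, 1 with quantile normalization, arrays shifted to one median, all probe sets, or trend and robust estimation, and 1 to 2 when single arrays were left out. The call of Hdc over both genotypes was lost without KO untreated replicate 1, 2 or 3, KO LPS replicate 2 or 3, WT untreated replicate 1 or 3, or WT LPS replicate 2 or 3 (adjusted p 0.0541 to 0.107), and Kit passed without KO LPS replicate 2 (adjusted p = 0.0419). With the replicate number as a block, 3 markers passed in KO cells (Hdc, Kit and Prg2). Of all genes, 11.4% passed there with 12 separate samples and 10.4% with the 9 arrays other than untreated WT. The pairing in WT cells was not borne out by the residuals, and no marker call between the genotypes changed with the block. Between the genotypes and in the interaction, 0 markers passed in every setting run. Over all genes, the calls ran from 562 to 4698 in KO cells, 76 to 2437 in WT cells and 694 to 4747 over both, against 1311, 349 and 1380 in the setting reported. Calls between the genotypes ran from 1 to 257 in untreated cells, 1 to 15 after LPS and 1 to 39 over both treatments, and 0 to 280 in the interaction. The cause of these shifts was not tested. Without the low small RNA arrays each LPS group has 1 array, assumed to vary like the others. The estimation of array weights stopped before its tolerance. The dim signals of Fcer1a, Ms4a2 and Epx limit what can be read from them.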
